A study of Mus musculus with 24 samples.

Results

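The regulators of the NRF2 pathway examined here were Nfe2l2, Nfe2l1, Keap1, Sqstm1, Bach1, Maff, Mafg and Mafk. A gene was included when the array's own annotation named a probe for it, by its symbol or an older synonym. All 8 genes were found, on 12 of the 41174 probes other than controls, which cover 19504 named genes. The synonym NRF1 of Nfe2l1 was not used because it is also another gene's name. Each of the 12 probes was read well above background on each of the 24 arrays, so no member was lost to a filter on dim spots, and none was saturated or marked as an outlier.

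RNA came from immortalized mouse embryonic fibroblasts (MEFs) that lack Ku70, a DNA end-binding protein of non-homologous end joining. Every group, the untreated controls included, was Ku70-/-, and no wild-type cells were measured. Potassium bromate (KBrO3) is an oxidizing agent that damages DNA bases, and bisphenol A (BPA) is a monomer used to make plastics; the comparisons ask how each agent, and BPA given together with KBrO3, changed transcript levels. KBrO3-only cells received 20 mM KBrO3 for 1 hr and were left to repair for 3 or 23 hr, which gives the 4 hr and 24 hr groups. Co-exposed cells received 150 µM BPA for 1 hr before KBrO3, both agents for 1 hr, and BPA for the 3 or 23 hr that followed. BPA-only cells received 150 µM BPA for 4 or 24 hr according to the sample labels, while the study's methods give somewhat longer incubations; the labels' times are used here. Each group had 3 arrays, described as independent experiments, and each array was hybridized with RNA labeled with a single dye. The arrays form 2 sets that were read with different software versions. Set 1 has 15 arrays (control, KBrO3-only and co-exposed at both times), and set 2 has 9 arrays (its own control and BPA-only at both times). The set 1 controls are labelled 4 hr, the set 2 controls carry no time, and the 24 hr groups of set 1 were therefore compared with 4 hr controls. Treatments were compared only with controls of their own set.

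Levels are given as log2 of the background-corrected spot signal minus the array's 75th percentile, so 0 is the 75th percentile of the array and 1 unit is a doubling. A difference was called when its Benjamini-Hochberg adjusted p from limma, a linear model with a shared estimate of the spread, was below 0.05 over all probes of the set and its fold was beyond 1.5. Gene counts use 1 probe per gene, the brightest over the 24 arrays. The typical spread between arrays of a group differed between the sets. The median residual SD over probes was 0.107 in set 1 and 0.340 in set 2, so a BPA-only difference must be larger to be called. A fit of all 24 arrays, given below as an alternative, shares 1 spread over both sets. For a typical probe that spread is too small for set 2 and too large for set 1. Arrays share slides, and only the KBrO3 4 hr group had a control on its slide in set 1. In the other comparisons with the set 1 controls, treatment is confounded with slide, and their effects cannot be told apart. The same holds for time in KBrO3-only cells, whose 4 hr and 24 hr arrays shared no slide. The correlation of arrays on a slide, estimated for the random slide block, was 0.63 in set 1 and 0.12 in set 2. The main p-values do not take it into account. Of 10 fibroblast markers, 9 were well above background on all set 1 arrays and 10 on all set 2 arrays. Ptprc, which marks leukocytes, was above background on no array. The epithelial keratins Krt5, Krt14 and Krt19, the endothelial gene Vwf and the leukocyte genes Cd68, Cd3e and Cd14 were above background on all arrays of both sets. The endothelial gene Kdr was so on all arrays of set 2. The summed linear level of the fibroblast markers, relative to the 75th percentile, was 1500 to 1600 in the set 1 controls, 1392 to 1483 with KBrO3 and 1029 to 1071 with co-exposure at 4 hr, and 657 to 745 and 447 to 526 at 24 hr. In set 2 the sum was 674 to 779 in the controls, 650 to 775 with BPA at 4 hr and 546 to 636 at 24 hr. The epithelial sum was 1.01 to 1.18 in set 1 controls, 1.88 to 1.91 with KBrO3 at 4 hr and 0.38 to 0.42 with co-exposure at 24 hr, and the other groups of set 1 lay between 0.81 and 1.31. In set 2 the epithelial sum ran from 0.29 to 2.31. The endothelial sum ran from 0.11 to 0.21 over all 24 arrays. Cdh1, Cldn4, Pecam1, Cdh5 and Tie1 were above background on no set 1 array. In set 2 this held for Pecam1 and Tie1 only, and Cdh1, Cldn4 and Cdh5 were above background on at least 1 array. The part of these marker changes in the results was not tested, and fewer cells of a type and less RNA per cell cannot be told apart in bulk RNA. The Ku70 gene, Xrcc6, gave a probe signal of 0.097 ± 0.10 (SD, n = 3) in set 1 controls and -0.072 ± 0.26 in set 2 controls. Whether that probe lies in the deleted sequence is not given in the sources used here, so it checks neither the genotype nor the labels.

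NRF2, the protein of Nfe2l2, is a transcription factor that turns on genes for glutathione synthesis, thiol repair, NADPH supply and drug conjugation. In unstressed cells KEAP1 binds NRF2 and presents it to a ubiquitin ligase built on cullin 3, and oxidants or electrophiles that modify KEAP1 let newly made NRF2 reach the nucleus. There it pairs with a small Maf protein (MAFF, MAFG or MAFK) on the antioxidant response element; BACH1 pairs with the same partners and represses genes such as Hmox1 until heme removes it; SQSTM1 (p62) carries KEAP1 to autophagy. Because NRF2 is controlled mainly through its stability, transcript levels of these genes describe the supply of the regulators and not the activity of the NRF2 protein.

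The probes are shown first, because for Nfe2l2 and Mafg the result depended on which probe was read. Each line gives the first 30 of 60 bases, 5′ to 3′, as the array design lists them on mouse build mm7. No annotation of that build was used here, so the position within the gene model is not given. The 4 Nfe2l2 probes lie on the minus strand; distances are counted from the 3′-most probe, which is also the brightest:
Nfe2l2, chr2:75519430-75519489, 3′-most probe: ctcaagttaatttcttaggcaccatttggg
Nfe2l2, chr2:75519576-75519635, 146 bp upstream: gtactgctaaaacttcctactgtgatgtga
Nfe2l2, chr2:75535606-75535665, 16176 bp upstream: tagtaatcctttttataggcccaaattgca
Nfe2l2, chr2:75544410-75544469, 24980 bp upstream: ggtagagtttggtaatgattaccctgtatt

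The 2 Mafg probes lie 2282 bp apart, and the first is the brighter one:
Mafg, chr11:120738072-120738131: acgttgggatcagccagttcaacagtgatg
Mafg, chr11:120735790-120735849: aggagtagtaggtctttgcttctgaacagg

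The Keap1 probe is given whole because its 60 bases are spread over chr9:21107406-21107846 on the minus strand, a span longer than the probe, as for a probe that crosses a splice junction:
Keap1: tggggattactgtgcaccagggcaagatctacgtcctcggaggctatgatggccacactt

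The other members had 1 probe each. These were at chr11:96926508-96926567 for Nfe2l1 and chr11:50156925-50156984 for Sqstm1 on the minus strand, and at chr16:87779384-87779443 for Bach1, chr15:79441964-79442023 for Maff and chr5:138773324-138773383 for Mafk on the plus strand. A further probe, described on the array as sequestosome 1 but carrying no gene name, fell outside the rule and is mentioned only beside Sqstm1.

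Promoters are shown for the members whose 250 bases upstream of a RefSeq start (build GRCm38.p6) held a searched motif, since several members moved together at 4 hr. All 8 members matched the RefSeq table, with 14 starts. The letters searched on both strands were TGACNNNGC (the core of the antioxidant response element, in 10.2% of 32851 mouse promoter windows of this length), TGANTCA (an AP-1 site, 6.75%) and TGACGTCA (a cAMP response element, 1.55%). Capitals mark the match, and a match is a description of the letters and not evidence of a bound site:
Nfe2l2, chr2:75704664-75704913, minus strand, antioxidant response element core: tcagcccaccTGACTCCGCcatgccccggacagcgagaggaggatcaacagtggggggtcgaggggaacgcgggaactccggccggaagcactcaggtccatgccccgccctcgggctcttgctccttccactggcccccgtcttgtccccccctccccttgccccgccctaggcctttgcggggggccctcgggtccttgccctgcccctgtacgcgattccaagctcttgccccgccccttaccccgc
Maff start 1, chr15:79346371-79346620, plus strand, antioxidant response element core: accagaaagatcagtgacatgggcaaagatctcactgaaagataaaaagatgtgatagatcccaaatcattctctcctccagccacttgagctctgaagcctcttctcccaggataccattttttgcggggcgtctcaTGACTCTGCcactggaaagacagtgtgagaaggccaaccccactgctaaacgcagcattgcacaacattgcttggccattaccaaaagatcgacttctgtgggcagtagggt
Maff start 2, chr15:79347270-79347519, plus strand, cAMP response element: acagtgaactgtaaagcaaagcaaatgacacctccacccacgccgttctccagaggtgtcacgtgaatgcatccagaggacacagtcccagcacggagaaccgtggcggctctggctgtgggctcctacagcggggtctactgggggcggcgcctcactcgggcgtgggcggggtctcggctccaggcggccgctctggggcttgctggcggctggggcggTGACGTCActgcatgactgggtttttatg
Mafg, chr11:120633548-120633797, minus strand, antioxidant response element core in reverse: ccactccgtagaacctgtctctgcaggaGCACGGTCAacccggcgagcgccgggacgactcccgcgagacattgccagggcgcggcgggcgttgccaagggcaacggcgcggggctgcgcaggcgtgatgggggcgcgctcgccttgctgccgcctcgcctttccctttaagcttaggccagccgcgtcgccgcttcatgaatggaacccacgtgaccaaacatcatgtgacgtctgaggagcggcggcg
Mafk, chr5:139791286-139791535, plus strand, antioxidant response element core in reverse: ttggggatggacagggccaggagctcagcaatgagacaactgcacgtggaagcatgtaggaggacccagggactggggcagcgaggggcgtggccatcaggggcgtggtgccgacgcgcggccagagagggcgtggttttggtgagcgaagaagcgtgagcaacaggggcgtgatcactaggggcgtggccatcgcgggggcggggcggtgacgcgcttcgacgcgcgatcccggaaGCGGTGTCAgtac

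The core motif was thus in 4 of the 14 windows, those of Nfe2l2, the first Maff start, Mafg and Mafk. It began 240 bases upstream of the start in Nfe2l2, 112 in Maff, 222 in Mafg and 13 in Mafk. The searched letters were not in the windows of Nfe2l1, Keap1, Bach1 and Sqstm1.

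At 4 hr after KBrO3, transcripts of NRF2, its small Maf partners, its repressor BACH1 and SQSTM1 were higher than in untreated cells, and Keap1 was lower. In KBrO3-only cells 7 of 8 members were called against a background of 44.0% of all genes tested: Nfe2l2, Bach1, Maff, Mafg, Mafk and Sqstm1 rose and Keap1 fell. The median log2 difference of the members was 1.53 against 0.017 over all genes. Co-exposure at 4 hr was set against those control arrays too, and there 7 of 8 were called (background 54.7%). Nfe2l2, Bach1, Maff, Mafg, Mafk and Sqstm1 were higher and Keap1 lower, with a median of 1.15 against 0.0053 over all genes.

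By 24 hr fewer members differed from control by the call. With KBrO3 alone 1 of 8 was called (background 33.7%), namely Nfe2l1, which was lower, and the median was -0.0015 against -0.068 over all genes. With co-exposure 2 of 8 were called, Mafg and Sqstm1, both higher (background 39.6%), with a median of 0.12 against -0.062. Between the times, 7 of 8 members were called in KBrO3-only cells (background 48.1%) and 6 of 8 in co-exposed cells (background 57.7%). Keap1 rose from 4 to 24 hr in both, and the others that were called fell. Nfe2l1 was not called in either, nor Mafg in co-exposed cells. For KBrO3 alone no slide held arrays of both times, so time and slide cannot be told apart there.

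**Figure D1:**
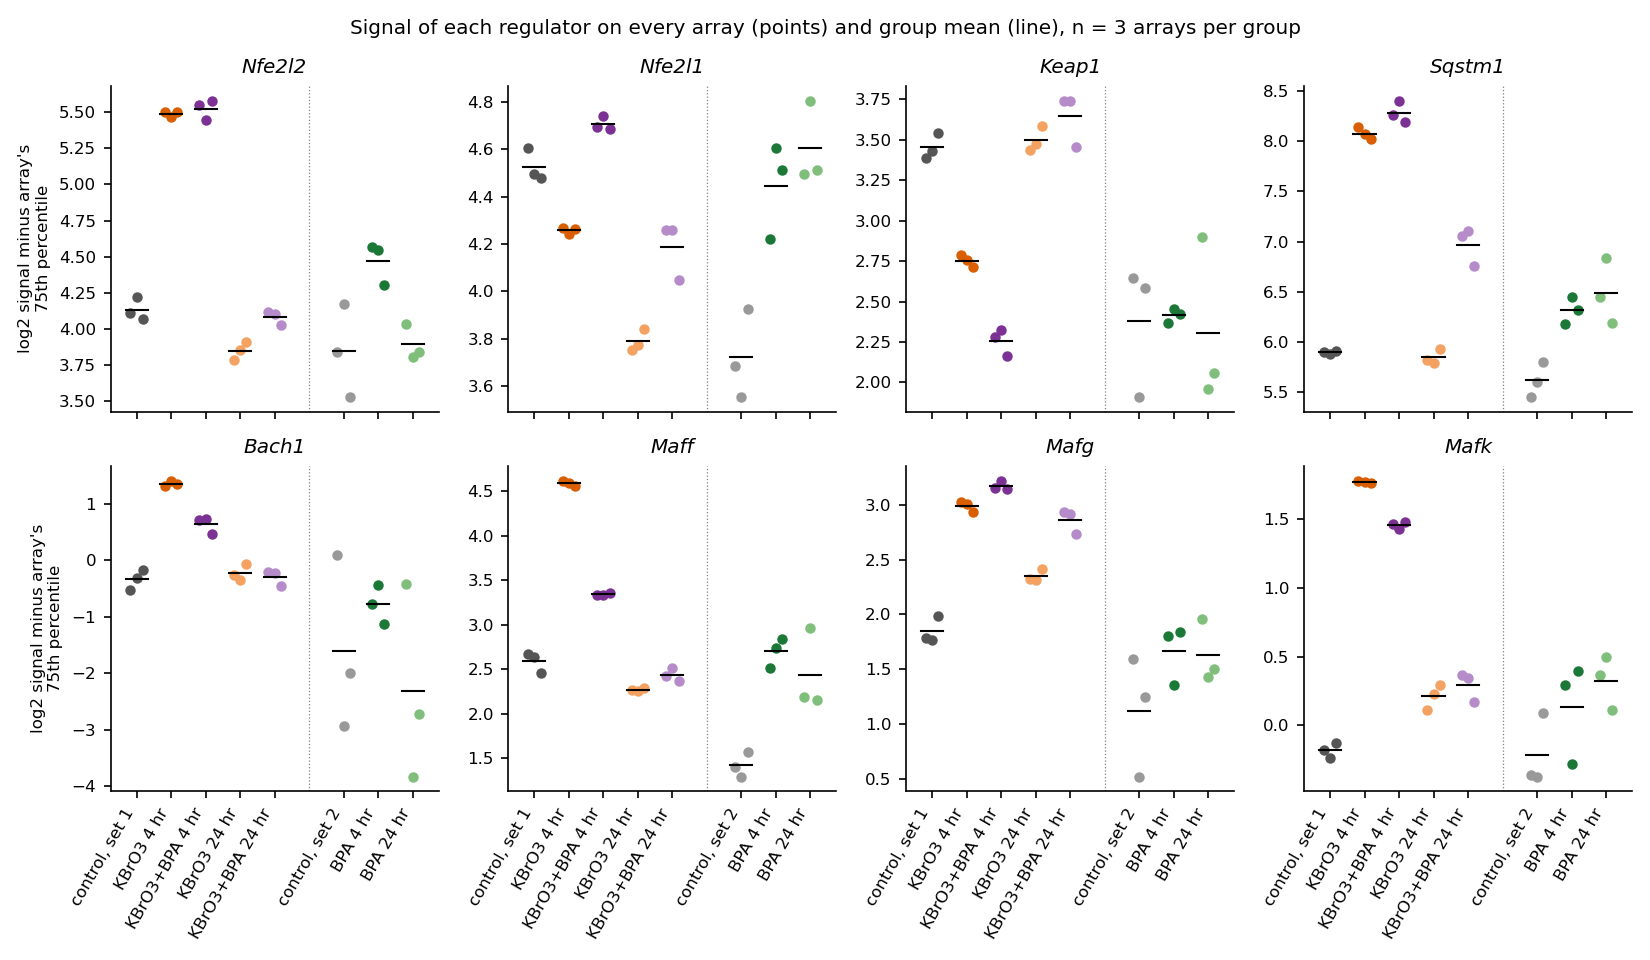
Signal of each regulator (log2, relative to the array's 75th percentile) on every array, with points for the 3 arrays of a group and a line for their mean; a dotted line separates the 2 array sets. Sqstm1 sits between 8.02 and 8.40 in both 4 hr groups of set 1 and between 5.88 and 5.91 in the controls.

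Nfe2l2 encodes NRF2 itself. On the 3′-most probe the set 1 controls read 4.11, 4.22 and 4.07, the KBrO3 4 hr arrays 5.50, 5.47 and 5.50, and the co-exposed 4 hr arrays 5.55, 5.45 and 5.58. At 24 hr the KBrO3 arrays read 3.79, 3.85 and 3.91 and the co-exposed arrays 4.12, 4.11 and 4.03. Both 4 hr groups were thus above all controls and overlapped with each other, the co-exposed 24 hr arrays overlapped with the controls, and the KBrO3 24 hr arrays were the lowest. Nfe2l2 rose 2.56-fold with KBrO3 at 4 hr (log2 difference 1.35 ± 0.053 SE, adjusted p = 2.16e-10) and 2.62-fold with co-exposure (1.39, adjusted p = 1.37e-10). On the slide that held both groups, the 3 KBrO3 4 hr arrays were 1.42 above the 1 control array. At 24 hr the KBrO3 difference was -0.28 (adjusted p = 0.000444), within the fold limit, and the co-exposed difference was -0.049 (adjusted p = 0.427). From 4 to 24 hr the transcript fell 3.11-fold in KBrO3-only cells and 2.71-fold in co-exposed cells on this probe. The other probes gave other sizes. In KBrO3-only cells the 24980 bp probe fell 2.35-fold and the 146 bp probe 2.06-fold, while the 16176 bp probe was 1.45-fold lower and not called (-0.54). In co-exposed cells the same probes fell 2.55-fold, 3.93-fold and 3.58-fold.

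The other Nfe2l2 probes rose at 4 hr too, but they separated the KBrO3-only from the co-exposed cells where the 3′-most probe did not. The probe 146 bp upstream read 2.82, 2.93 and 2.90 in controls, 4.24, 4.28 and 4.29 with KBrO3 at 4 hr and 5.14, 4.95 and 5.11 with co-exposure. The probe 16176 bp upstream read -5.00, -4.98 and -4.84 in controls, -3.35, -3.38 and -3.47 with KBrO3 and -2.46, -2.67 and -2.46 with co-exposure. On both probes all co-exposed arrays exceeded all KBrO3-only arrays at 4 hr, whereas on the 3′-most probe these groups overlapped. The co-exposed minus KBrO3 difference at 4 hr was 0.80 ± 0.14 on the 146 bp probe (1.74-fold, adjusted p = 0.000493) and 0.87 ± 0.11 on the 16176 bp probe (1.83-fold, adjusted p = 3.17e-05). It was 0.24 on the 24980 bp probe (adjusted p = 0.0384, within the fold limit) and 0.036 on the 3′-most probe (adjusted p = 0.582). The 24980 bp probe read 0.83, 0.63 and 0.41 in controls, 1.27, 1.24 and 1.20 with KBrO3 and 1.46, 1.47 and 1.51 with co-exposure at 4 hr. Its rise with KBrO3 at 4 hr was 0.61 (adjusted p = 5.61e-05).

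At 24 hr the probes parted in sign as well. The 16176 bp probe read -3.77, -4.02 and -4.04 with KBrO3 and -4.37, -4.57 and -4.16 with co-exposure, above all controls in both groups. Against control it was 2.00-fold higher with KBrO3 at 24 hr (1.00, adjusted p = 4.17e-06), whereas the 24980 bp probe was lower by 0.62 (adjusted p = 6.87e-05; arrays at 0.13, -0.14 and 0.017). The 146 bp probe differed by 0.35 at 24 hr (adjusted p = 0.0446; arrays at 3.30, 3.31 and 3.07). Which transcripts each probe reads was not tested, and the counts above rest on the 3′-most probe alone.

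**Figure D2:**
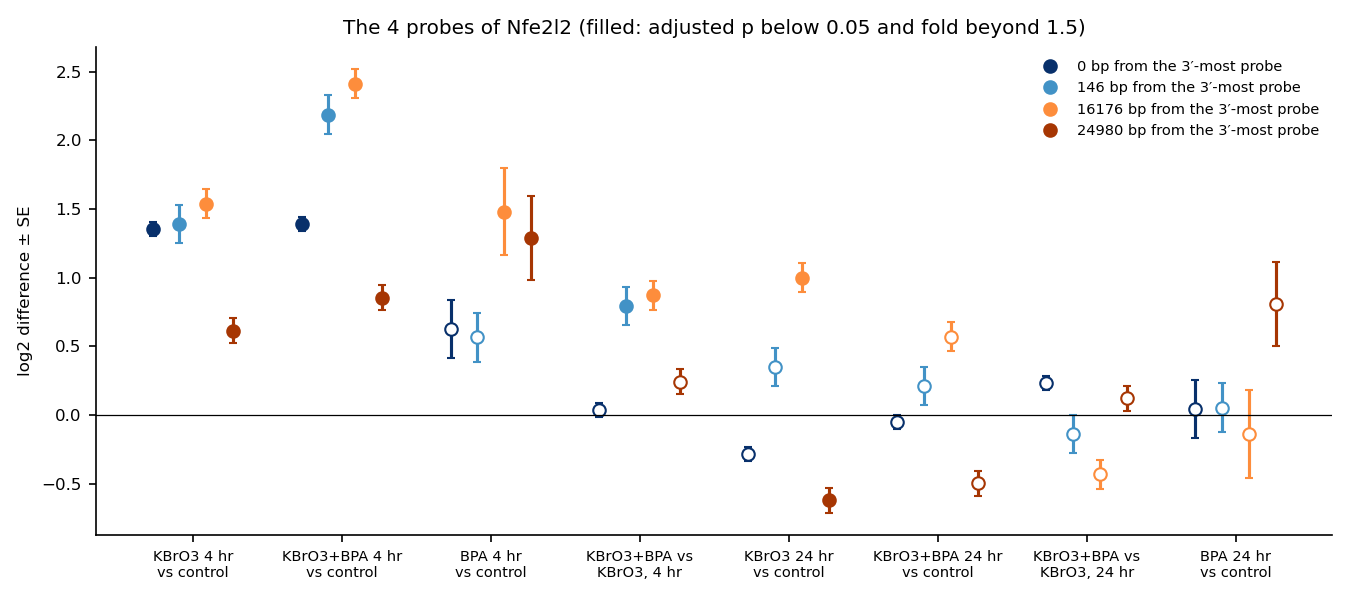
Log2 differences ± SE of the 4 Nfe2l2 probes in each comparison, coloured by distance from the 3′-most probe; filled points passed adjusted p below 0.05 and a fold beyond 1.5. In co-exposed against KBrO3-only cells at 4 hr the 146 bp and 16176 bp probes lie at 0.80 and 0.87 and the 3′-most probe at 0.036.

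Nfe2l1 encodes NRF1, a membrane-anchored relative of NRF2 that is known for inducing proteasome genes. It read 4.60, 4.50 and 4.48 in set 1 controls, 4.27, 4.24 and 4.26 with KBrO3 at 4 hr and 4.70, 4.74 and 4.68 with co-exposure at 4 hr. At 24 hr it read 3.75, 3.77 and 3.84 with KBrO3 and 4.26, 4.26 and 4.05 with co-exposure. The order was co-exposure at 4 hr, control, KBrO3 at 4 hr together with co-exposure at 24 hr, which overlapped, and KBrO3 at 24 hr, with no overlap between the other neighbours. Nfe2l1 fell 1.67-fold with KBrO3 at 24 hr (-0.74 ± 0.058, adjusted p = 2.72e-07). The remaining differences from control were within the fold limit, at -0.27 with KBrO3 at 4 hr (adjusted p = 0.00112), 0.18 with co-exposure at 4 hr (adjusted p = 0.0125) and -0.34 with co-exposure at 24 hr (adjusted p = 0.000219). Among the members it was the exception at 4 hr, with no called change in either exposure. The 24 hr call was lost with quantile normalization (-0.58) and with the normexp background correction (-0.38).

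Keap1 encodes the adaptor that holds NRF2 in the cytoplasm for degradation. Its arrays read 3.39, 3.43 and 3.55 in set 1 controls, 2.79, 2.75 and 2.72 with KBrO3 at 4 hr and 2.28, 2.33 and 2.16 with co-exposure at 4 hr. At 24 hr they read 3.44, 3.47 and 3.58 with KBrO3 and 3.74, 3.74 and 3.46 with co-exposure. Co-exposed arrays at 4 hr were thus the lowest, KBrO3 arrays at 4 hr next, and the control and both 24 hr groups overlapped. Keap1 fell 1.63-fold with KBrO3 at 4 hr (-0.70 ± 0.079, adjusted p = 4.75e-06) and 2.30-fold with co-exposure (-1.20, adjusted p = 2.51e-08). The within-slide difference for KBrO3 at 4 hr was -0.79. The fall with KBrO3 alone was not called after normexp background correction (-0.42, adjusted p = 0.0561). From 4 to 24 hr Keap1 rose 1.68-fold in KBrO3-only and 2.62-fold in co-exposed cells, and at 24 hr it differed from control by 0.045 (adjusted p = 0.634) and 0.19 (adjusted p = 0.0480).

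Sqstm1 encodes p62, an autophagy receptor that binds KEAP1. Set 1 controls read 5.90, 5.88 and 5.91, the KBrO3 4 hr arrays 8.14, 8.07 and 8.02 and the co-exposed 4 hr arrays 8.26, 8.40 and 8.19. At 24 hr KBrO3 arrays read 5.82, 5.79 and 5.93 and co-exposed arrays 7.06, 7.10 and 6.75. The KBrO3 24 hr arrays overlapped with the controls, while the co-exposed 24 hr arrays stayed above both. Sqstm1 rose 4.53-fold with KBrO3 at 4 hr (2.18 ± 0.085, adjusted p = 2.33e-10) and 5.24-fold with co-exposure (2.39, adjusted p = 8.23e-11). Within the slide shared with 1 control the KBrO3 difference was 2.17. At 24 hr it was 2.11-fold higher than control in co-exposed cells (1.07, adjusted p = 2.44e-07), and the KBrO3 difference was -0.048 (adjusted p = 0.638). Co-exposed cells exceeded KBrO3-only cells 2.18-fold at 24 hr (1.12, adjusted p = 6.57e-07), and on the 1 slide with both groups, 2 arrays of each, the difference was 1.22. The unnamed sequestosome 1 probe differed between these groups by 0.73 at 24 hr, and rose by 1.91 with KBrO3 and 2.18 with co-exposure at 4 hr.

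Bach1 encodes the heme-sensing repressor that competes with NRF2 for small Maf partners. Controls of set 1 read -0.53, -0.31 and -0.17, KBrO3 4 hr arrays 1.31, 1.41 and 1.35 and co-exposed 4 hr arrays 0.72, 0.73 and 0.47. The 24 hr values were -0.26, -0.35 and -0.065 with KBrO3 and -0.21, -0.23 and -0.45 with co-exposure. KBrO3 at 4 hr was the highest group, co-exposure at 4 hr came next, and the other 3 groups of set 1 overlapped. The repressor's transcript rose 3.24-fold with KBrO3 at 4 hr (1.70 ± 0.11, adjusted p = 2.02e-08) and 1.97-fold with co-exposure (0.97, adjusted p = 3.49e-06). On the shared slide the KBrO3 difference was 1.53. At 24 hr the differences from control were 0.11 (adjusted p = 0.380) and 0.041 (adjusted p = 0.749). The fall from 4 to 24 hr was 3.00-fold in KBrO3-only and 1.91-fold in co-exposed cells, the second of which was not called with median scaling (-0.47) or in a fit of all 24 arrays (adjusted p = 0.223). In set 2 the Bach1 signal scattered widely, with controls at 0.098, -2.94 and -1.99, so set 2 gives no usable order for this gene; a fit of all 24 arrays did not call the co-exposed rise at 4 hr (adjusted p = 0.209).

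Maff encodes a small Maf protein that lacks a transactivation domain and serves as a partner of NRF2 and BACH1. It read 2.68, 2.64 and 2.45 in set 1 controls, 4.62, 4.60 and 4.56 with KBrO3 at 4 hr and 3.34, 3.33 and 3.36 with co-exposure at 4 hr. At 24 hr it read 2.26, 2.25 and 2.28 with KBrO3 and 2.43, 2.51 and 2.36 with co-exposure. All KBrO3 arrays at 4 hr lay above all co-exposed arrays, those above the controls, and the KBrO3 24 hr arrays were the lowest; controls and co-exposed 24 hr arrays overlapped. Maff rose 4.01-fold with KBrO3 at 4 hr (2.00 ± 0.057, adjusted p = 1.52e-11) and 1.69-fold with co-exposure (0.75, adjusted p = 9.04e-08). Within the shared slide the KBrO3 difference was 2.14. Its later values against control, -0.33 with KBrO3 (adjusted p = 0.000281) and -0.16 with co-exposure (adjusted p = 0.0269), were within the fold limit. From 4 to 24 hr Maff fell 5.02-fold in KBrO3-only and 1.88-fold in co-exposed cells; with arrays scaled to their median the second fall was -0.45 and within the fold limit.

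Mafg encodes the second of the small Maf partners. The brighter probe read 1.78, 1.77 and 1.99 in set 1 controls, 3.03, 3.01 and 2.94 with KBrO3 at 4 hr and 3.15, 3.22 and 3.14 with co-exposure at 4 hr. At 24 hr it read 2.33, 2.31 and 2.41 with KBrO3 and 2.93, 2.91 and 2.73 with co-exposure. The 5 groups did not overlap, with co-exposure above KBrO3 at each time and the controls lowest. Mafg rose 2.21-fold with KBrO3 at 4 hr (1.15 ± 0.068, adjusted p = 1.15e-08), 2.50-fold with co-exposure at 4 hr (1.32, adjusted p = 2.46e-09) and 2.02-fold with co-exposure at 24 hr (1.01, adjusted p = 5.59e-08). The KBrO3 difference at 24 hr was 0.50 (1.42-fold, adjusted p = 3.66e-05), within the fold limit. The second probe gave controls at -1.46, -1.46 and -1.23 and KBrO3 24 hr arrays at -0.27, -0.56 and -0.53, a called rise of 0.93 (1.91-fold, adjusted p = 1.61e-06). The KBrO3 24 hr call for Mafg therefore depended on the probe. It depended on the processing too, as the brighter probe was called with median scaling (0.65, adjusted p = 5.90e-05) and with normexp background correction (0.72, adjusted p = 0.00178). From 4 to 24 hr Mafg fell 1.56-fold in KBrO3-only cells, a call that was lost with quantile normalization (-0.38), with median scaling (-0.49) and with the mean of both probes (-0.55).

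Mafk encodes the third small Maf. Set 1 controls read -0.18, -0.24 and -0.13, KBrO3 4 hr arrays 1.78, 1.77 and 1.76 and co-exposed 4 hr arrays 1.46, 1.42 and 1.48. The 24 hr arrays read 0.11, 0.23 and 0.29 with KBrO3 and 0.37, 0.34 and 0.17 with co-exposure. The KBrO3 4 hr arrays lay above the co-exposed 4 hr arrays, the 24 hr groups overlapped with each other, and both lay above the controls. Mafk rose 3.86-fold with KBrO3 at 4 hr (1.95 ± 0.059, adjusted p = 2.57e-11) and 3.11-fold with co-exposure (1.64, adjusted p = 9.00e-11). Within the shared slide the KBrO3 difference was 1.89. The 24 hr differences of 0.39 (1.31-fold, adjusted p = 8.36e-05) and 0.47 (1.39-fold, adjusted p = 1.48e-05) passed the test on p but not the fold limit.

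**Figure D3:**
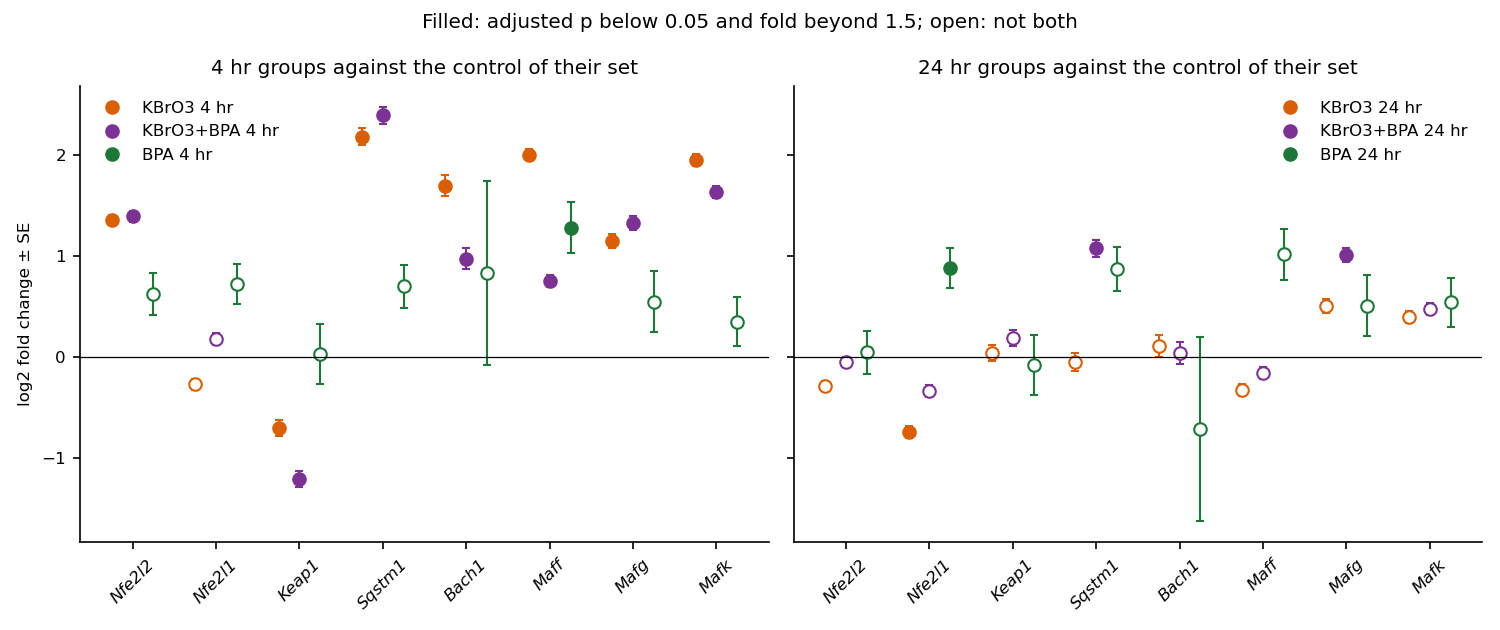
Log2 fold change ± SE of each regulator against the control of its own array set, with 4 hr groups on the left and 24 hr groups on the right; filled points passed adjusted p below 0.05 and a fold beyond 1.5. The KBrO3 and co-exposure points of Sqstm1 lie at 2.18 and 2.39 at 4 hr and at -0.048 and 1.07 at 24 hr, and the BPA-only error bars of set 2 are wider.

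Co-exposed and KBrO3-only cells were then compared directly, which asks what BPA added. At 4 hr 2 of 8 members were called (background 19.9%): Maff was 2.38-fold lower in co-exposed cells (-1.25, adjusted p = 2.49e-08) and Bach1 1.65-fold lower (-0.72, adjusted p = 0.000149). The Keap1 difference was -0.50 (1.41-fold, adjusted p = 0.000237), the Mafk difference -0.31 (adjusted p = 0.000782) and the Nfe2l1 difference 0.45 (1.37-fold, adjusted p = 4.77e-05), all within the fold limit. The median over members was -0.14, against -0.015 over all genes. At 24 hr 1 of 8 was called (background 14.2%), Sqstm1. Mafg differed by 0.51 (1.42-fold, adjusted p = 7.61e-05), Nfe2l1 by 0.40 (1.32-fold, adjusted p = 0.000129) and Nfe2l2 by 0.23 on its 3′-most probe (adjusted p = 0.00299). The Nfe2l2 probes disagreed in sign here. The 16176 bp probe gave -0.43 (adjusted p = 0.00557), the 146 bp probe -0.14 (adjusted p = 0.446) and the 24980 bp probe 0.12 (adjusted p = 0.292). The within-slide differences at 24 hr were 0.56 for Mafg, 0.45 for Nfe2l1 and 0.23 for Nfe2l2 on its 3′-most probe. In the fit of all 24 arrays the Bach1 difference at 4 hr was not called (adjusted p = 0.468). No slide held both groups at 4 hr, so there slide and BPA cannot be told apart.

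The change of this BPA difference from 4 to 24 hr was tested as an interaction. It was called and positive for 4 of 8 members, against 26.9% of all genes called. Maff had the largest of these changes (1.42 ± 0.080, 2.67-fold, adjusted p = 2.01e-07), moving from -1.25 at 4 hr to 0.17 at 24 hr. Sqstm1 changed by 0.91 ± 0.12 (1.88-fold, adjusted p = 8.48e-05), but the sequestosome 1 probe without a gene symbol gave 0.46 ± 0.12 (adjusted p = 0.00768), which was not called. The change was also called for Bach1, at 0.65 ± 0.15 (1.57-fold, adjusted p = 0.00367), and for Keap1, at 0.64 ± 0.11 (1.56-fold, adjusted p = 0.000559). For Bach1 and Keap1 a difference that was negative at 4 hr was near 0 by 24 hr; for Sqstm1 a difference of 0.21 became 1.12. The Nfe2l2 probes disagreed in sign, with 0.20 ± 0.074 on the 3′-most probe (adjusted p = 0.0393), -0.93 ± 0.20 on the 146 bp probe (adjusted p = 0.00203) and -1.30 ± 0.15 on the 16176 bp probe (adjusted p = 3.16e-05). The Bach1 call was lost with slide as a random block (0.61, adjusted p = 0.0523), in a fit of all 24 arrays (adjusted p = 0.677) and without the third co-exposed 4 hr array, where 0.57 was within the fold limit. The Keap1 call was lost with quantile normalization (0.50), with normexp background correction (adjusted p = 0.175) and in the fit of all 24 arrays (adjusted p = 0.119).

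**Figure D4:**
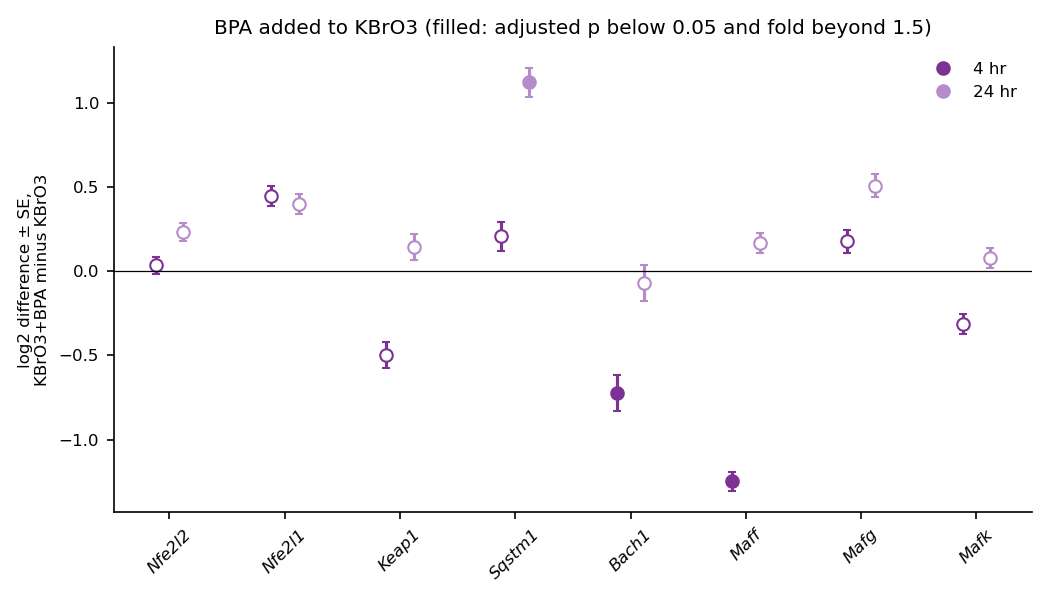
Log2 difference ± SE of co-exposed minus KBrO3-only cells for each regulator at 4 hr (dark) and 24 hr (light); filled points passed adjusted p below 0.05 and a fold beyond 1.5. Maff and Bach1 lie below 0 at 4 hr, at -1.25 and -0.72, and Sqstm1 lies at 1.12 at 24 hr.

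BPA alone was measured in set 2. In the fit of all 24 arrays these differences were tested with a spread shared with the less variable set 1. Calls gained in that fit therefore do not make an uncalled difference firmer. At 4 hr 1 of 8 members was called (background 4.67%), Maff, with a median over members of 0.66 against -0.055 over all genes. At 24 hr 1 of 8 was called (background 4.32%), Nfe2l1, with a median of 0.53 against 0.019. Between 4 and 24 hr of BPA limma called 0 of 8 (background 4.34%), and 1 member, Nfe2l2, passed an unadjusted p below 0.05 (21.5% of all genes). That count rests on 1 probe per gene. The 16176 bp probe of Nfe2l2 was called, lower at 24 than at 4 hr (-1.62 ± 0.32, 3.07-fold, adjusted p = 0.0255). Its other probes were not called, at -0.58 on the 3′-most (adjusted p = 0.170), -0.51 on the 146 bp (adjusted p = 0.152) and -0.48 on the 24980 bp probe (adjusted p = 0.410). The mean of the probes, which weights each equally, was called (-0.80, adjusted p = 0.0359).

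Maff read 1.40, 1.29 and 1.56 in set 2 controls, 2.52, 2.74 and 2.84 with BPA at 4 hr and 2.19, 2.97 and 2.15 at 24 hr. Both BPA groups lay above all controls. Maff rose 2.43-fold at 4 hr (1.28 ± 0.25, adjusted p = 0.0239) and was 2.02-fold higher at 24 hr without passing the test (1.02, adjusted p = 0.0624). That 24 hr difference was called in the fit of all 24 arrays (adjusted p = 0.000125), with slide as a random block (adjusted p = 0.0454) and with the mean of probes (adjusted p = 0.0335). On the 1 slide with both groups at 4 hr the difference was also 1.28, and on the slides with 1 array of each at 24 hr it was 0.89 and 1.40. The 4 hr call was lost when any 1 of the 3 controls or the 3 BPA 4 hr arrays was left out, with adjusted p from 0.0122 to 0.120 over the 9 arrays left out. Its adjusted p over the other 13 settings ran from 8.61e-06 to 0.417.

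Nfe2l1 read 3.69, 3.56 and 3.93 in set 2 controls, 4.22, 4.60 and 4.51 with BPA at 4 hr and 4.49, 4.80 and 4.51 at 24 hr. All BPA arrays lay above all controls. Nfe2l1 rose 1.84-fold at 24 hr (0.88 ± 0.20, adjusted p = 0.0472), and at 4 hr the difference was 0.72 (1.65-fold, adjusted p = 0.0825; called in the fit of all 24 arrays, adjusted p = 0.000167). With any 1 of the 9 arrays left out the 24 hr rise was not called (adjusted p 0.0646 to 0.147), and over the other 13 settings its adjusted p ran from 2.55e-05 to 0.527. Within the slides that held 1 control and 1 BPA 24 hr array, the differences were 0.94 and 0.88.

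Sqstm1 read 5.45, 5.60 and 5.80 in set 2 controls, 6.18, 6.45 and 6.32 with BPA at 4 hr and 6.44, 6.84 and 6.19 at 24 hr. The groups did not overlap with the controls, but the differences of 0.70 (1.62-fold, adjusted p = 0.115) and 0.87 (1.83-fold, adjusted p = 0.0647) were not called. The fit of all 24 arrays called both (adjusted p = 0.00124 and 0.000182), and a random slide block and the mean of probes called the 24 hr difference (adjusted p = 0.0480 and 0.0338). The sequestosome 1 probe without a gene symbol gave smaller differences, which were 0.38 (adjusted p = 0.509) after the shorter BPA exposure and 0.19 after the longer one (adjusted p = 0.773). Nfe2l2 read 3.84, 4.17 and 3.53 in controls, 4.57, 4.54 and 4.31 at 4 hr and 4.04, 3.81 and 3.84 at 24 hr on the 3′-most probe, a difference of 0.62 ± 0.21 at 4 hr (1.54-fold, adjusted p = 0.146) and of 0.047 at 24 hr (adjusted p = 0.936). The 4 hr difference was called in the fit of all 24 arrays (adjusted p = 0.00122) and with the mean of probes (0.99, adjusted p = 0.0155). That mean weights every probe equally, the dim 16176 bp probe included. Again the Nfe2l2 probes differed. The 146 bp probe was close to the 3′-most one and was not called at 4 hr (0.56, 1.48-fold, adjusted p = 0.122). The 16176 bp probe was called at 4 hr (1.48 ± 0.32, 2.79-fold, adjusted p = 0.0345; controls -4.28, -4.66 and -5.24, BPA -3.65, -3.14 and -2.95), as was the 24980 bp probe (1.29 ± 0.30, 2.44-fold, adjusted p = 0.0492; controls -0.10, -1.25 and -1.12, BPA 0.26, 0.59 and 0.52). Keap1, whose controls read 2.65, 1.91 and 2.58, differed by 0.035 ± 0.30 at 4 hr (adjusted p = 0.961); the 24 hr value was -0.074 (adjusted p = 0.928). Mafk and Mafg differed by 0.35 (adjusted p = 0.480) and 0.55 (adjusted p = 0.368) at 4 hr, and the second Mafg probe had the opposite sign (-0.27, adjusted p = 0.801). For Mafg at 24 hr the difference was 0.51 (adjusted p = 0.410). At 24 hr Mafk arrays read 0.37, 0.50 and 0.11 against controls at -0.36, -0.37 and 0.086 (0.54, adjusted p = 0.280). Bach1 differed by 0.83 ± 0.91 at 4 hr (adjusted p = 0.664) and its 24 hr value was -0.71 (adjusted p = 0.731).

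The members were next read beside other genes of the pathway, taken from lists of known function and given by their counts and largest changes. Of 32 NRF2 target genes, 24 rose and none fell with KBrO3 at 4 hr, with a list median of 1.23; over all genes 20.9% were called higher and 23.1% lower. Hmox1, which opens the heme ring, stood at 2.97 ± 0.080 in controls and 9.19 ± 0.061 with KBrO3 at 4 hr (SD, n = 3), a rise of 6.22. The glutathione transferases Gsta1 and Gsta2 were called higher too, but their probes, which may share signal between near-identical copies, were above background on only 1 of the 3 controls, so no size is given for their rise. Those probes entered the test only through treated groups, and no count of this list was made without them. With co-exposure at 4 hr 19 rose and 2 fell (Gstm1 by 1.03 and Mgst1 by 0.81), with a median of 1.20, where 28.1% of all genes were called higher and 26.6% lower. Hmox1 was among the risers, and its probe was saturated on 1 of the 3 co-exposed arrays, so the size of that rise is not given.

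The NRF2 targets differed between the exposures at 24 hr. With KBrO3 alone 7 rose and 4 fell, with a median of 0.11, where 12.7% of all genes were called higher and 21.0% lower. The risers included Gsta1 and Gsta2, which entered the test only through treated groups, and Aox1 and Gstm1 fell by 1.63 and 1.57. With co-exposure 17 rose and 2 fell, with a median of 0.64 (15.7% and 23.9% of all genes). Compared directly at 24 hr, co-exposure gave higher values than KBrO3 alone for 15 of 32 and lower values for none, with a median of 0.57, where 6.50% of all genes were called higher and 7.65% lower. Hmox1 stood at 2.84 ± 0.043 with KBrO3 and 4.94 ± 0.054 with co-exposure (2.10 ± 0.06 SE, adjusted p = 4.68e-10), and Slc7a11, the cystine transporter, at -2.40 ± 0.038 and -0.73 ± 0.14 (1.67 ± 0.07 SE, adjusted p = 6.93e-09). At 4 hr the direct comparison called 1 higher (Slc7a11, 0.62) and 3 lower, with a median of -0.27 (10.8% and 9.06% of all genes). The interaction was called for 22 of 32, all positive, where 13.1% of all genes were called positive and 13.8% negative. Gsta4 changed by 2.16; Hmox1 was called as well, with the saturated array among its 4 hr values.

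**Figure D5:**
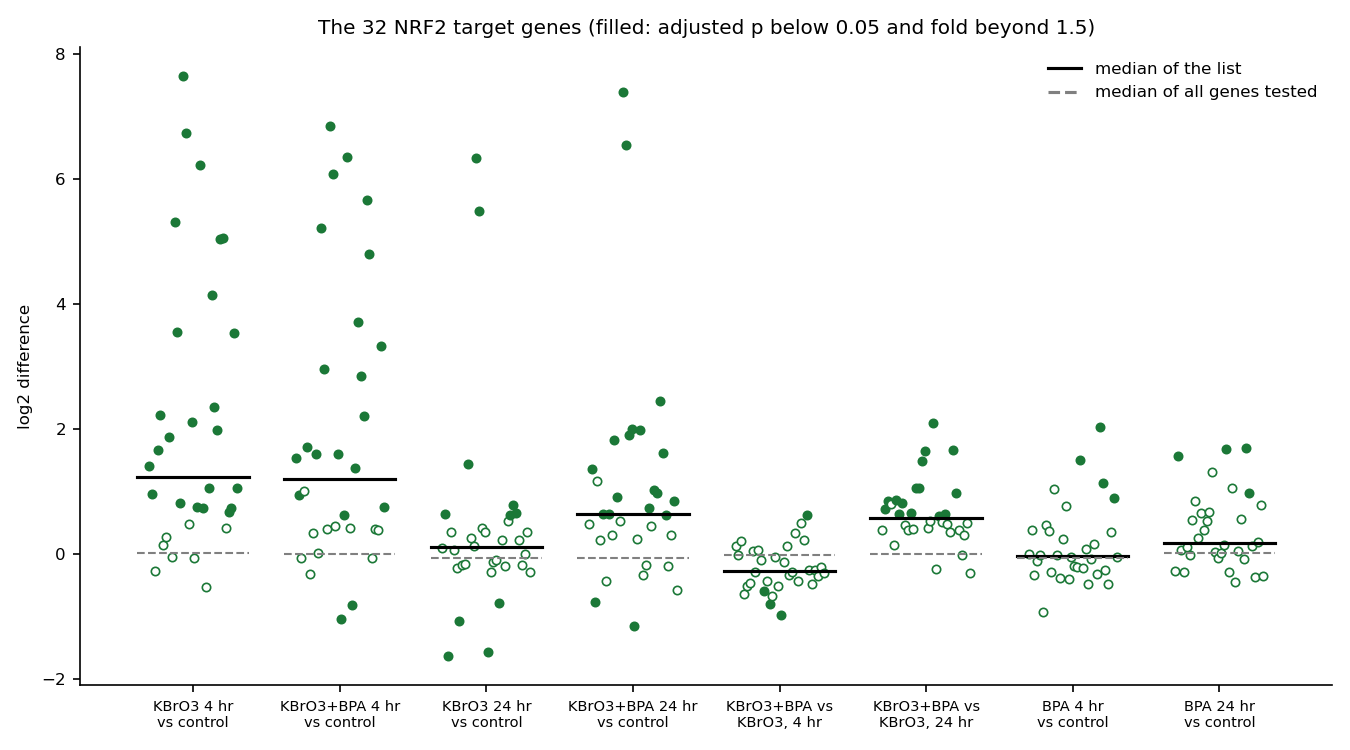
Log2 differences of the 32 NRF2 target genes in 8 comparisons, 1 point per gene; filled points passed adjusted p below 0.05 and a fold beyond 1.5, the solid line is the median of the list and the dashed line the median of all genes tested. The list median is 1.23 with KBrO3 at 4 hr and 0.11 at 24 hr, and 0.57 for co-exposed against KBrO3-only cells at 24 hr; points of Gsta1 and Gsta2 against set 1 controls and of Hmox1 with co-exposure at 4 hr are as measured, with controls near background and 1 saturated array.

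With BPA alone 4 of the 32 targets rose at 4 hr and 4 at 24 hr, and none fell, where 3.04% and 1.81% of all genes were called higher. Slc7a11 rose by 2.03 ± 0.26 at 4 hr (adjusted p = 0.00415), and its 24 hr rise was 1.69 (adjusted p = 0.0116). Hmox1 rose 2.83-fold at 4 hr (adjusted p = 0.00882) and by 1.69 on the log2 scale at 24 hr (adjusted p = 0.00748). The list medians were -0.032 and 0.18, beside -0.055 and 0.019 over all genes.

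Genes that BACH1 is known to repress, which handle heme and iron, gave 4 risers of 5 tested with KBrO3 at 4 hr (20.9% of all genes rose), with Hmox1 and the ferritin light chain Ftl1 (1.87) the largest. Hmox1, Fth1, Ftl1 and Blvrb are also among the NRF2 targets above, so this list is not independent of that one. With co-exposure at 4 hr 3 of 5 rose (28.1% of all genes). Later, at 24 hr, the ferritin heavy chain Fth1 fell by 1.07 with KBrO3 alone, while 3 of 5 rose with co-exposure (15.7% of all genes), among them Hmox1 (1.98) and the heme transporter Slc48a1 (1.40). In the direct comparison 4 of 5 were higher in co-exposed cells at 24 hr (6.50% of all genes), with a median of 0.82. At 4 hr limma called none of the 5 in that comparison (background 19.9%), 2 had an unadjusted p below 0.05 (65.0% of all genes), and the median was -0.16 against -0.015 over all genes.

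Of 13 genes of NRF2 degradation, 4 rose and 1 fell with KBrO3 at 4 hr (background 44.0%). The scaffold genes Cul3 (1.13) and Cul1 (1.12) were highest, and Btrc, which recognises phosphorylated NRF2, fell by 0.69. With co-exposure at 4 hr 4 rose and 2 fell (background 54.7%), with Cul3 at 1.24 and Cul1 at 1.14 and Dcaf11 lower by 0.83. Cul3 thus rose in the 4 hr samples in which Keap1, its adaptor for NRF2, fell. By 24 hr the deubiquitinase gene Usp15 was 1.09 higher with KBrO3 and 0.93 higher with co-exposure, and Usp11 fell by 0.67 with KBrO3 alone. With BPA alone none of the 13 was called at 4 hr (background 4.67%) or 24 hr (background 4.32%); 1 and 0 of them passed an unadjusted p below 0.05 in limma, beside 20.2% and 20.9% of all genes.

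Of 9 genes for proteins that bind KEAP1, 3 rose and 3 fell with KBrO3 at 4 hr (background 44.0%). Cdkn1a (p21) rose by 3.08 and Sesn2, a stress-induced sestrin, by 2.29, while Amer1 and Nbr1 fell by 2.26 and 1.06. With co-exposure at 4 hr 3 rose and 4 fell (background 54.7%), and Sesn2 (3.09) was the largest. At 24 hr 3 rose and 2 fell with KBrO3 (background 33.7%), and 4 rose and 1 fell with co-exposure (background 39.6%). Against KBrO3 alone at 24 hr, 2 of 9 were called, both higher in co-exposed cells (background 14.2%), namely Cdkn1a (1.65) and Sesn2 (1.44). The same comparison at 4 hr called 3 of 9, all higher (background 19.9%), with Palb2 (1.28) and Sesn2 (0.80) the largest. With BPA alone 1 of the 9 was called at each time (background 4.67% and 4.32%), Sesn2, with a 4 hr rise of 1.19 ± 0.25 (adjusted p = 0.0314) and a 24 hr rise of 1.37 (adjusted p = 0.0211).

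Of 12 autophagy partners of SQSTM1, 2 rose and 1 fell with KBrO3 at 4 hr (background 44.0%): Tollip rose by 1.19 and Map1lc3a by 0.88, and Nbr1 fell by 1.06, where Sqstm1 rose by 2.18. With co-exposure at 4 hr 3 rose and 1 fell (background 54.7%). At 24 hr, when co-exposure gave 2.18-fold more Sqstm1 than KBrO3 alone, limma called none of the 12 in that comparison (background 14.2%), 11 had an unadjusted p below 0.05 with a fold within 1.5, and the list median was 0.18. Over all genes 56.2% had such a p, at any fold. BPA alone gave no called gene among the 12 in limma (background 4.67% at 4 hr and 4.32% at 24 hr); 1 at 4 hr and 0 at 24 hr passed an unadjusted p below 0.05.

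Of 7 genes that cut, deglycosylate or extract NRF1 from its membrane, 4 rose and 1 fell with KBrO3 at 4 hr (background 44.0%), where Nfe2l1 itself was not called. The protease gene Ddi2 rose by 1.59 and Nploc4 by 1.29, and Ngly1 fell by 1.21. With co-exposure at 4 hr 4 rose and none fell (background 54.7%), and Ngly1 was 1.09 higher than with KBrO3 alone. At 24 hr Ufd1 and Nploc4 were higher in both exposures, by 1.03 and 0.93 with KBrO3 and by 1.15 and 0.97 with co-exposure.

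Of other factors of the CNC, BACH and MAF families, Bach2, a relative of BACH1, fell by 1.52 with co-exposure at 24 hr against control. Nfe2l3 rose with co-exposure at 4 hr (1.34 ± 0.46, adjusted p = 0.0180). In BPA-only cells Bach2 rose at 4 hr (1.24 ± 0.25, adjusted p = 0.0262) and fell by 1.58 from 4 to 24 hr.

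The genes whose signal was most like each member over the 15 arrays of set 1, among 14457 genes tested in both sets, are given as a description. Those arrays lie in 5 groups, so the correlation r mainly reflects the group means. Sqstm1 was most like Cdt1, Ccl4 and Tom1 (r = 0.997, 0.997 and 0.991), and over the 9 arrays of set 2 the same pairs gave 0.69, 0.63 and 0.43. Mafg was most like Rrp36, Tymp and Ing2 (0.995, 0.991 and 0.990), with 0.81, 0.79 and 0.51 in set 2. Nfe2l2 was closest to Msantd1, Smad1 and 9430038I01Rik (0.996, 0.996 and 0.995), with -0.44, 0.65 and 0.42 in set 2. Keap1 was closest to Kctd17, Tmub2 and Cnp (0.995, 0.994 and 0.994), and there all set 2 values were below 0, from -0.56 to -0.10. Nfe2l1 was closest to Cdkn2b (0.972), Cox7a1 and Gpcpd1, Bach1 to Tubb6 (0.986), Baiap2 and Aurkc, Maff to Hnrnpm (0.986), Mbtd1 and Bdp1, and Mafk to Cdk5r1 (0.997), Ahctf1 and Pou3f1; in set 2 these gave values from -0.34 to 0.64. Among the members themselves the largest r in set 1 was between Bach1 and Maff, 0.96, and in set 2 that pair gave -0.051.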

How the data were processed

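RNA from the 24 cell samples, each with the dye Cy3, was read on Agilent Whole Mouse Genome arrays, 1 sample per array. The deposited files are scanner output, and the authors extracted them with Agilent Feature Extraction, version 9.5.3.1 in set 1 and 12.0.0.7 in set 2 per the file headers. The deposited values are spot intensity, background-subtracted by that software and not normalized between arrays; the deposited series-wide values hold the same intensity values (1080432 of 1080432 equal within a relative tolerance of 1e-06).

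Outlier spots were left out, spots of a probe were averaged, and log2 intensity minus the array's 75th percentile was used. A probe entered the test if all arrays of some group in its set read it well above background (27298 probes in set 1, 31791 in set 2). limma 3.58.1 in R 4.3.3 (with the data.table package, version 1.17.8) fitted the groups of each set together, two-sided, with Benjamini-Hochberg adjustment over all probes tested; calls needed adjusted p below 0.05 and a fold beyond 1.5. The script was tested on simulated data. The 8 regulators were counted in each comparison through their brightest probe, and values of other probes are given where the text names them; from each gene list, up to 2 called genes with the largest rise and fall were named, and for each regulator up to 3 genes of most similar signal. The members and lists were chosen with earlier results of these data known. Some members of the marker and gene lists, and the counts and sums that need them, are not reported here. Of 41174 probes, 22951 were matched to current gene names by accession and 9758 by symbol or synonym.

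Alternatives were quantile and median scaling, normexp background correction (on mean spot signals in set 1 and median spot signals in set 2, offset 50), the series-wide values, 2 other filters on dim probes, other sample choices, error weights, slide and replicate blocks, other thresholds, the mean over probes, and leaving out each array. The number of arrays limits the precision. No 2 arrays held identical values (highest correlation 0.9921).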

Additional observations from a re-analysis of the deposited data

Results flagged for a closer look

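The effect of adding BPA to KBrO3 was compared between 4 and 24 hr by the interaction test in limma, which with the fold limit called 4 of the 8 regulators where 26.9% of all genes were called. Among regulators with an adjusted p below 0.05, whatever the fold, the change was 0.20 for Nfe2l2 on its 3′-most probe (adjusted p = 0.0393), 0.64 for Keap1 (adjusted p = 0.000559), 0.65 for Bach1 (adjusted p = 0.00367), 1.42 for Maff (adjusted p = 2.01e-07), 0.33 for Mafg (adjusted p = 0.0130), 0.39 for Mafk (adjusted p = 0.00200) and 0.91 for Sqstm1 (adjusted p = 8.48e-05; 0.46 and not called on the sequestosome 1 probe without a gene symbol), each on the log2 scale with n = 3 arrays per group. Nfe2l2, Mafg and Mafk stayed within the fold limit. The sign of the Nfe2l2 change depended on the probe, and the slides of the groups differed, so slide and this change cannot be told apart.

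Maff at 4 hr moved in opposite directions with BPA in the presence and in the absence of KBrO3. Every co-exposed array was below every KBrO3-only array, by -1.25 on average, and every BPA-only array was above every control of its set, by 1.28. The 2 differences come from different array sets, and the difference between them was not tested.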

How the results depend on the processing

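Of the 96 values of single regulators (8 regulators in 12 comparisons), 39 were called. Over alternatives other than leaving out an array, those 39 gave 484 values, of which 458 kept their direction and their call, 26 were no longer called and none changed sign. Of 573 values with 1 array left out, 557 kept the call and 16 lost it: Maff with BPA at 4 hr without any of 6 arrays, Nfe2l1 with BPA at 24 hr without any of 9, and the Bach1 interaction without 1. The 57 values not called gave 716 under the same alternatives, of which 657 kept direction and side of the threshold, 19 became called and 40 changed sign. The count of called regulators for KBrO3 at 4 hr and co-exposure at 4 hr against control, and for both comparisons of 24 with 4 hr in set 1, did not move by more than 1.5 times under the alternatives run; with median scaling that for co-exposure at 24 against 4 hr went from 6 to 4, losing Bach1 and Maff.

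The following counts moved by more than 1.5 times; with median scaling, exactly 1.5 times as many were called for the interaction (6, with Mafg and Mafk added), co-exposure at 24 hr (3, with Mafk) and co-exposure against KBrO3 at 4 hr (3, with Keap1). For KBrO3 at 24 hr against control the count of 1 became 0 with quantile normalization, 2 with median scaling, 2 with the mean of all probes of a gene and 5 without a fold limit. With normexp it stayed at 1, but the gene called was Mafg in place of Nfe2l1. For co-exposure at 24 hr against control 2 became 6 without a fold limit. For co-exposure against KBrO3 at 4 hr 2 became 1 in a fit of all 24 arrays, 1 with the methods' Bonferroni threshold and 6 without a fold limit; at 24 hr 1 became 2 with median scaling and 5 without a fold limit. The interaction count of 4 became 2 in the fit of all 24 arrays, 1 with Bonferroni and 7 without a fold limit. For BPA at 4 hr the count of 1 became 0 with normexp, with slide as a fixed block and with Bonferroni, 4 in the fit of all 24 arrays (adding Nfe2l1, Nfe2l2 and Sqstm1) and 2 with the mean of probes (adding Nfe2l2). For BPA at 24 hr 1 became 0 with quantile normalization, median scaling, normexp, no filter on dim probes, only the arrays compared, a fixed slide block and Bonferroni, and 3 in the fit of all 24 arrays, with a random slide block and with the mean of probes (each adding Maff and Sqstm1). For BPA at 24 against 4 hr 0 became 1 with the mean of probes (Nfe2l2). Leaving out 1 of 9 arrays gave 0 to 1 for BPA at 4 hr and 0 to 0 for BPA at 24 hr.

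With replicate number as a block (replicate block), the counts for BPA at 4 hr and at 24 hr both went from 1 to 0 (Maff adjusted p = 0.0569, Nfe2l1 adjusted p = 0.101), and no other call changed. Arrays with the same number did not deviate together on average (mean correlation -0.029 in set 1 and 0.0021 in set 2). In set 2 the 9 same-numbered pairs ran from -0.38 to 0.65, so the mean cannot decide whether some of them are paired.

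Sign changed only for values that were not called. With slide as a fixed block, Bach1 was -1.05, 0.34 and 1.39 for BPA at 4 hr, BPA at 24 hr and BPA 24 against 4 hr, Keap1 was -0.25, 0.18 and 0.43, and for BPA 24 against 4 hr Mafg was 0.58 and Mafk -0.13. With slide as a random block, Bach1 was -0.0073 (co-exposure 24 hr), Keap1 -0.036 (KBrO3 24 hr), Mafg 0.023 (BPA 24 against 4 hr) and the Nfe2l1 interaction 0.011. With median scaling, Bach1 was 0.098 (co-exposure against KBrO3, 24 hr), Keap1 0.0039 (BPA 24 against 4 hr) and 0.034 (BPA 24 hr), Maff 0.16 (co-exposure 24 hr), Mafg 0.074 (BPA 24 against 4 hr) and 0.15 (co-exposure 24 against 4 hr), Nfe2l1 0.26 (interaction), Nfe2l2 0.27 (co-exposure 24 hr) and -0.11 (co-exposure against KBrO3, 4 hr), and Sqstm1 0.10 (KBrO3 24 hr). With normexp, Bach1 was -0.024, Maff 0.14 and Nfe2l2 0.31 for co-exposure at 24 hr, Mafg 0.14 (BPA 24 against 4 hr), Nfe2l1 0.021 (KBrO3 4 hr), and Nfe2l2 0.032 and Sqstm1 0.29 for KBrO3 at 24 hr. With quantile normalization, Keap1 was -0.017 (BPA 4 hr), Nfe2l1 -0.0084 (co-exposure 4 hr), Nfe2l2 -0.078 (BPA 24 hr), -0.019 (interaction) and 0.018 (co-exposure 24 hr), and Sqstm1 0.16 (KBrO3 24 hr). With the mean of probes, Mafg was 0.32 (BPA 24 against 4 hr), and Nfe2l2 0.11 (KBrO3 24 hr), -0.54 (interaction), 0.059 (co-exposure 24 hr) and -0.052 (co-exposure against KBrO3, 24 hr). The cause was not tested. With 1 array left out, the ranges that crossed 0 were -0.053 to 0.12 for Bach1 (co-exposure 24 hr), -0.13 to 0.0098 for Bach1 (co-exposure against KBrO3, 24 hr), -0.084 to 0.021 for the Nfe2l1 interaction, -0.20 to 0.17 for Keap1 (BPA 4 hr), and, for BPA at 24 hr, -0.37 to 0.10 for Keap1, -1.67 to 0.14 for Bach1 and -0.11 to 0.21 for Nfe2l2. For BPA 24 against 4 hr they were -0.41 to 0.064 for Keap1, -0.021 to 0.32 for Mafk and -0.20 to 0.062 for Mafg.

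A fixed slide block could be fitted for 6 of the 12 comparisons. Median scaling moved the median of all genes by up to 0.46 (co-exposure 24 against 4 hr), and normexp by -0.34 (co-exposure 4 hr). Relative signals at 24 hr within such shifts cannot be given a direction independent of scaling. The spread in set 2 limited what could be called with BPA alone.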
